A study of Homo sapiens with 3 samples.

Results

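Aminoacyl-tRNA synthetases are the enzymes that join each amino acid to its transfer RNA, and the 35 nuclear genes described here were taken by name, 19 for the cytosolic enzymes and 16 for the mitochondrial ones, out of 18331 genes counted in the series. Each symbol was matched to its Entrez identifier. All 35 genes had counts in all 3 libraries and passed the filter on low counts. The cells were PC-3, an established human prostate cancer line, and the 3 RNA sequencing libraries came from cells taken 7 days after infection with lentivirus that expresses a short hairpin RNA (shRNA). KMT2D shRNA was given in 2 libraries, labelled KMT2D deficiency and numbered 1 and 2, and control shRNA in 1 library, labelled KMT2D normal. The labels do not say whether the numbered libraries are different hairpins or separate cultures, so p-values measure only the spread between these libraries, which may be technical. That spread was pooled across genes, so a p-value does not rest on the replicate spread of its own gene alone.

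Cells make 2 sets of these enzymes because mitochondria translate their own messages. Most amino acids are served by a cytosolic enzyme (names ending in 1, with FARSA and FARSB as the subunits of the phenylalanine enzyme) and by a separate mitochondrial enzyme (names ending in 2), both encoded in the nucleus. GARS1 and KARS1 serve both compartments from 1 gene each, and EPRS1 joins the glutamate and the proline enzyme in 1 protein. Several cytosolic enzymes are held together in the multisynthetase complex, while others work outside it. Many cytosolic synthetase genes are known targets of ATF4, the transcription factor of the amino acid and integrated stress response, and WARS1 is a textbook target of interferon.

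The labels were checked before the results. KMT2D, the targeted histone methyltransferase gene, had 107 and 138 CPM (counts scaled to library size by the TMM method) in the KMT2D shRNA libraries, against 100.1 CPM in the control shRNA library, so its RNA was not shown to be lower (log2 fold change 0.29, edgeR adjusted p = 0.227), and directions below are given for the libraries labelled KMT2D shRNA. Fold changes followed transcript length across genes, and after correction for length KMT2D stood at -0.66 on the log2 scale and passed (edgeR adjusted p = 0.0107), but not after correction for length and GC content (-0.49, edgeR adjusted p = 0.0668). Library totals were 5157482 and 5123794 estimated counts for KMT2D shRNA libraries 1 and 2 and 5559449 for the control. Of the 4 marker genes of the line, the epithelial keratin genes fell: KRT8 had 193 and 225 CPM in the KMT2D shRNA libraries, against 331 CPM in the control (log2 fold change -0.67, edgeR adjusted p = 0.00169), and KRT18 had 196.49 and 200.03 CPM, against 364 CPM (-0.88, edgeR adjusted p = 3.84e-05). KRT8 did not pass after correction for length (edgeR adjusted p = 0.0705). The other two did not pass, with log2 fold changes of -0.45 for EPCAM and 0.19 for VIM. Of markers of other cell types, the leukocyte gene PTPRC had 7 and 11 counts in the KMT2D shRNA libraries, against 7 in the control, and the endothelial gene PECAM1 had 101 and 96, against 112. The part of the keratin difference in the synthetase changes was not tested.

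Cytosolic synthetase RNAs were the ones that fell. In edgeR's quasi-likelihood test, 8 of the 19 cytosolic genes were lower in the KMT2D shRNA libraries at a Benjamini-Hochberg adjusted p under 0.05, against 14.5% of all 14016 genes tested. These were the enzymes for cysteine (CARS1), tryptophan (WARS1), alanine (AARS1), glycine (GARS1), serine (SARS1), methionine (MARS1), threonine (TARS1) and tyrosine (YARS1). Only QARS1, the glutamine enzyme, rose among the cytosolic genes, and only IARS2, the mitochondrial isoleucine enzyme, rose among the mitochondrial ones, where the share of all tested genes that rose was 16.5%. None of the 16 mitochondrial genes fell, and none did so at an unadjusted p under 0.05 in edgeR or by DESeq2. The median log2 fold change was -0.26 over the cytosolic genes and 0.11 over the mitochondrial genes, beside -0.0060 over all genes tested. The cytosolic median was -0.15 with the length trend removed and -0.17 with the length and GC trends removed, and the mitochondrial median was 0.034 without KMT2D shRNA library 1. No test was run between the compartments as lists. The members were chosen with earlier results of these data known, so the shares called are descriptions.

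**Figure D1:**
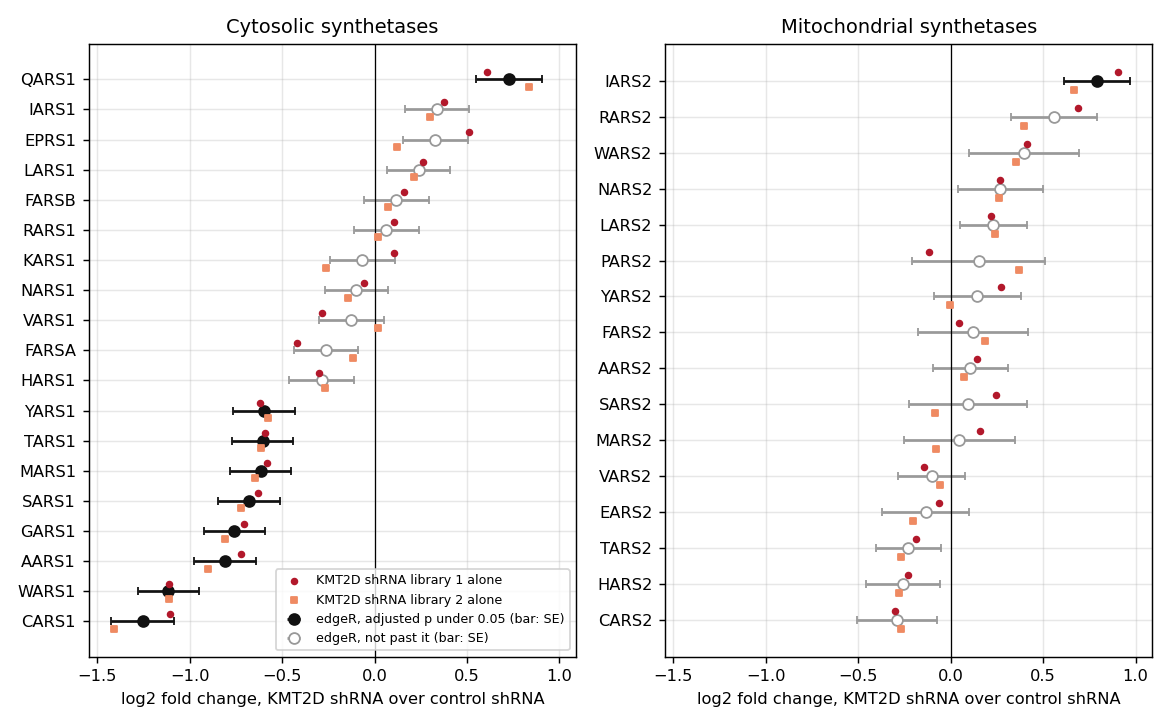
Log2 fold change (KMT2D shRNA over control shRNA, horizontal axis) of each cytosolic gene on the left and each mitochondrial gene on the right, ordered by size. Large points are edgeR estimates with SE bars, filled where the adjusted p is under 0.05, and small points are KMT2D shRNA libraries 1 and 2 set against the control on their own. The 8 filled points on the negative side are all cytosolic, from -1.25 for CARS1 to -0.60 for YARS1, and the filled points on the positive side are QARS1 and IARS2.

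CARS1 charges cysteine tRNA and showed the largest fall. It had 74.5 and 60.3 CPM in the KMT2D shRNA libraries, against 161 CPM in the control, and these levels rested on 390, 306 and 886 counts. Both KMT2D shRNA libraries were far below the control (edgeR adjusted p = 1.34e-07), and the log2 fold change was -1.25 with an SE of 0.17. WARS1, the tryptophan enzyme, had 124 CPM in each KMT2D shRNA library, against 269 CPM in the control. The KMT2D shRNA libraries differed from each other by far less than from the control, and the log2 fold change was -1.11 (SE 0.17, edgeR adjusted p = 6.57e-07). As a share of its control level, WARS1 stood at 0.461 in library 1, with a 95% interval of 0.421 to 0.506, and at 0.462 in library 2, with 0.421 to 0.507. Such intervals cover counting error only.

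AARS1, the alanine enzyme, averaged 174 ± 15.5 CPM (SD, n = 2) in the KMT2D shRNA libraries, at 184 and 163 CPM, against 304 CPM in the control. Its log2 fold change was -0.81 (edgeR adjusted p = 0.000162). GARS1, which supplies glycine tRNA in both compartments, had 205 and 190 CPM in the KMT2D shRNA libraries, against 334 CPM in the control (log2 fold change -0.76, edgeR adjusted p = 0.000334). For both genes the KMT2D shRNA libraries lay close together and well under the control. SARS1, which charges serine tRNA and also the selenocysteine tRNA, had 136 and 128 CPM in the KMT2D shRNA libraries, against 211 CPM in the control (log2 fold change -0.68, edgeR adjusted p = 0.00153).

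The other members that fell moved by about the same amount as each other. MARS1, which charges both initiator and elongator methionine tRNA, had 180 and 172 CPM in the KMT2D shRNA libraries, against 270 CPM in the control (log2 fold change -0.62, edgeR adjusted p = 0.00345). TARS1, the threonine enzyme, had 203 and 200 CPM in the KMT2D shRNA libraries, against 307 CPM in the control (log2 fold change -0.60, edgeR adjusted p = 0.00386). YARS1, the tyrosine enzyme, had 105 and 109 CPM in the KMT2D shRNA libraries, against 162 CPM in the control (log2 fold change -0.60, edgeR adjusted p = 0.00541). In these genes, too, neither KMT2D shRNA library reached the control level. DESeq2 gave adjusted p = 0.0644 for MARS1, 0.0509 for SARS1, 0.0626 for TARS1 and 0.123 for YARS1, so it called 4 cytosolic genes lower (CARS1, WARS1, AARS1 and GARS1), against 3.25% of all genes. It called QARS1 and IARS2 higher, against 5.3% of all genes. The library protocol mentions no strand marking, and exons of MARS1 overlap those of DDIT3 on the opposite strand in the GENCODE 29 annotation. DDIT3 had 172 and 127 counts in the KMT2D shRNA libraries, against 531 in the control, and its part in the fall of MARS1 was not tested. Among the other genes that fell, YARS1 overlaps S100PBP (108 and 109 counts in the KMT2D shRNA libraries, against 196 in the control), WARS1 overlaps WDR25 (30 and 40 against 76) and GARS1 overlaps GARS-DT (32 and 24 against 23).

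The start regions of the synthetase genes were searched for the response element that ATF4 is known to bind with C/EBP partners, because many of these genes are known ATF4 targets. The element's core was taken as TGATGNAA and read on both strands of RefSeq windows (build GRCh38.p14) that run from 250 bases before to 50 bases after a start. Windows were found for 30 of the 35 genes. The core lay in windows of 5 of the 7 genes that fell and had a window, in neither gene that rose, and in 3 of the 21 others with a window. All genes that fell are cytosolic and the 21 others are of both compartments, so this contrast mixes compartment with call. Of the 3, IARS1 and NARS1 are cytosolic and YARS2 is mitochondrial. The matches are printed in 30 bases each, on the strand that reads TGATG, with the core in capitals; the first 5 genes fell, and IARS1, NARS1 and YARS2 did not pass the test.
AARS1: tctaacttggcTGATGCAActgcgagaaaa
CARS1: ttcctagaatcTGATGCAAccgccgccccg
GARS1: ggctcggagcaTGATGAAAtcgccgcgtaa
MARS1: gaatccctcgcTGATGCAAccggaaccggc
TARS1: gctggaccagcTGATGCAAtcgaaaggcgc
IARS1: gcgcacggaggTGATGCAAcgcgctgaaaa
NARS1: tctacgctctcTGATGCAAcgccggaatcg
YARS2: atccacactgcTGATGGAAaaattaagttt

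The cytosolic genes other than GARS1 shared TGATGCAA, whereas GARS1 held TGATGAAA and the mitochondrial gene YARS2 TGATGGAA. In TARS1 the match is part of the longer TGATGCAAT, which no other member held and which was in 0.236% of all windows. The printed stretches lie at chr16:70289675-70289704 (plus strand) for AARS1, chr11:3057407-3057436 (plus) for CARS1, chr7:30594834-30594863 (minus) for GARS1, chr12:57488053-57488082 (minus) for MARS1 and chr5:33440956-33440985 (minus) for TARS1. Those of the genes that did not pass are chr9:92293692-92293721 (plus) for IARS1, chr18:57621804-57621833 (minus) for NARS1 and chr12:32756076-32756105 (minus) for YARS2. Relative to the start, the core ran from position -187 to -180 in AARS1, from -33 to -26 in GARS1 and from -13 to -6 in IARS1. It crossed or followed the start in CARS1 (-2 to 6), MARS1 (-4 to 4), TARS1 (3 to 10) and NARS1 (15 to 22). The same core was in 3.62% of all 35116 windows and in a window of 2.73% of the 11090 tested genes that had one. Of the 303 tested genes with the core, 16.5% fell, near the 14.4% of all tested genes with a window. A further 20.5% of the genes with the core rose, beside 16.8% of all tested genes with a window. A match is a description of letters and shows no binding.

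WARS1 was searched in the same way for the core of the interferon-stimulated response element (a pair of GAAA runs with any 2 bases between them), on both strands, since interferon is known to drive this gene. The window of 1 of its 2 RefSeq starts held it, and the match is printed in 30 bases on the minus strand with its letters in capitals.
WARS1, interferon-stimulated response element core: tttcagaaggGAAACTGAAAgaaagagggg

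This stretch lies at chr14:100375383-100375412 (GRCh38.p14), with the match at positions -55 to -46 from that start. The interferon element's core was in 3.57% of all windows. Among the other synthetase genes with a window, it was found only in EARS2. Of the 437 tested genes with the interferon element's core, 25.6% fell, beside 14.4% of all tested genes with a window. Another pattern, TTCNNNGAA, was also searched for and lay in the same WARS1 window. Of members with a window, it was in 3 of 7 that fell, 0 of 2 that rose and 2 of 21 others. Here, too, the 21 others are of both compartments. Of the 953 tested genes with TTCNNNGAA, 14.1% fell and 18.2% rose, beside 14.4% and 16.8% of all tested genes with a window.

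Levels were compared between genes per transcript length, in FPKM (fragments scaled to transcript length and library size). The median FPKM of the 19 cytosolic genes was 55.3 and 46.4 in the KMT2D shRNA libraries, against 61.4 in the control. That of the 16 mitochondrial genes was 9.64 and 8.51 in the KMT2D shRNA libraries, against 8.04 in the control. FPKM totals over all genes were 416144 and 416500 in the KMT2D shRNA libraries, against 494836 in the control. The median log2 difference over all genes was -0.00042, on log2(FPKM + 1) with a filter at a mean FPKM of 1. FPKM was thus level across libraries for the median gene but not in total. Whether the cytosolic median fell between libraries therefore depends on the scaling, and the compartments are compared within each library. By the medians, mitochondrial genes were the less abundant set in every library, and IARS2 was the most abundant of them. IARS2 had 72.2 and 59.7 FPKM in the KMT2D shRNA libraries, against 37.5 FPKM in the control. In the control, the highest FPKM among the members was that of GARS1 (119) and the lowest that of PARS2 (2.91), the mitochondrial proline enzyme.

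**Figure D2:**
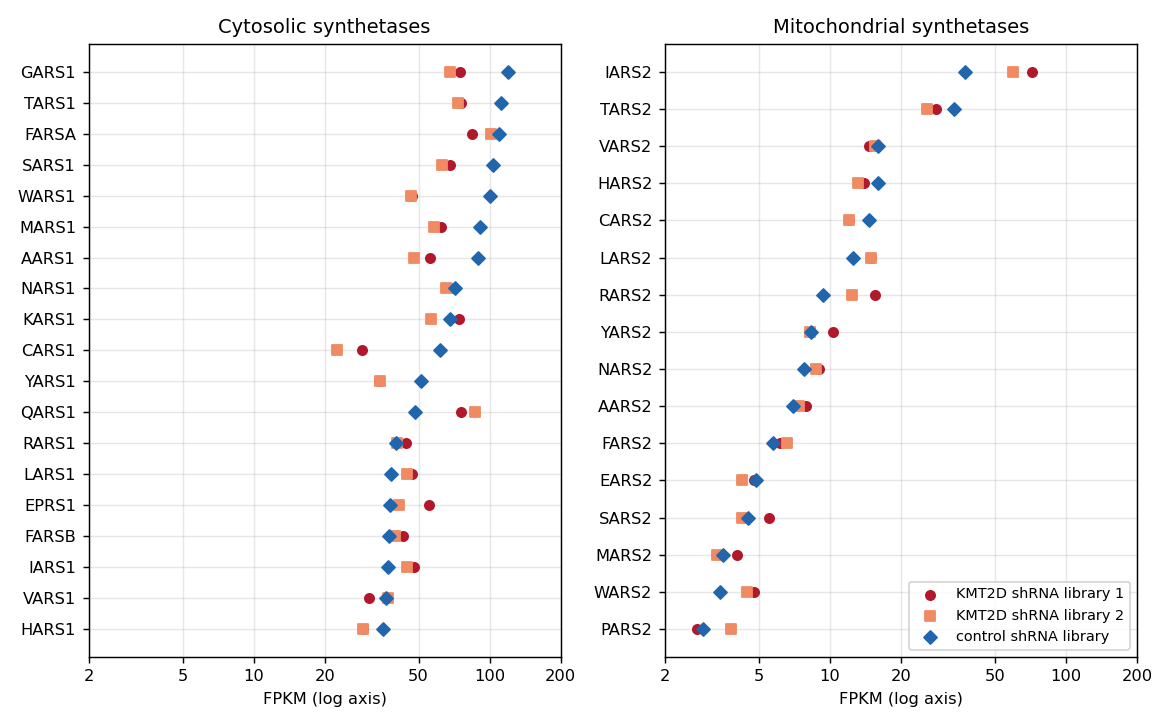
FPKM on a log axis of the cytosolic genes on the left and the mitochondrial genes on the right, ordered by the control library, with circles for KMT2D shRNA library 1, squares for library 2 and diamonds for the control. The cytosolic genes lie between 22.6 and 119 FPKM, and the mitochondrial genes other than IARS2 between 2.74 and 33.6 FPKM.

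QARS1 was the cytosolic gene that rose. It charges glutamine tRNA in the cytosol and has no mitochondrial partner, since mitochondria make their glutamine tRNA by amidating a glutamate that EARS2 has attached. QARS1 had 213 and 249 CPM in the KMT2D shRNA libraries, against 139 CPM in the control (log2 fold change 0.73, SE 0.18, edgeR adjusted p = 0.00139). Both KMT2D shRNA libraries were above the control. Library 1 held 1.52 times the control level of QARS1, with a 95% interval of 1.39 to 1.67, and library 2 held 1.78 times, with 1.63 to 1.95.

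The cytosolic genes were also read by membership of the multisynthetase complex. Of the 7 complex enzymes studied here, MARS1 fell, QARS1 rose, and EPRS1, IARS1, LARS1, RARS1 and KARS1 did not pass the test. These calls were 14.3% of the complex in each direction, near the 14.5% of all genes that fell and the 16.5% that rose. Of the 12 cytosolic genes outside the complex, 7 fell (58.3%, beside 14.5% of all genes), and FARSA, FARSB, HARS1, NARS1 and VARS1 did not pass. The median log2 fold change was 0.24 over the complex and -0.60 over the cytosolic genes outside it. Summed CPM of the complex genes was 1359 and 1264 in the KMT2D shRNA libraries, against 1188 in the control, whereas that of the genes outside it was 1678 and 1670, against 2487. With the length trend removed the medians were 0.11 for the complex and -0.51 for the genes outside it, with the same genes called. With the length and GC trends removed the complex median was 0.022, with 4 of its 7 genes above 0, and that outside it was -0.59. The difference between the sets was not tested.

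The complex members that did not pass are those for isoleucine, leucine, arginine, lysine and the fused glutamate and proline enzyme. IARS1 had 218 and 208 CPM in the KMT2D shRNA libraries, against 168 CPM in the control (log2 fold change 0.34, edgeR adjusted p = 0.13). EPRS1 differed more between the KMT2D shRNA libraries, at 276 and 211 CPM, against 194 CPM in the control (edgeR adjusted p = 0.159). RARS1 showed the smallest difference of all cytosolic genes, with 93.7 and 88.1 CPM in the KMT2D shRNA libraries, against 87.0 CPM in the control (log2 fold change 0.06, edgeR adjusted p = 0.823). KARS1 lay on both sides of the control, at 150 and 116 CPM against 139 CPM. LARS1 had a log2 fold change of 0.24 that turned to -0.03 with the length trend removed and passed in neither fit. The transcripts of EPRS1, LARS1 and IARS1 are the longest of the cytosolic genes, and their log2 fold changes with the length and GC trends removed were -0.025, -0.091 and 0.043.

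**Figure D3:**
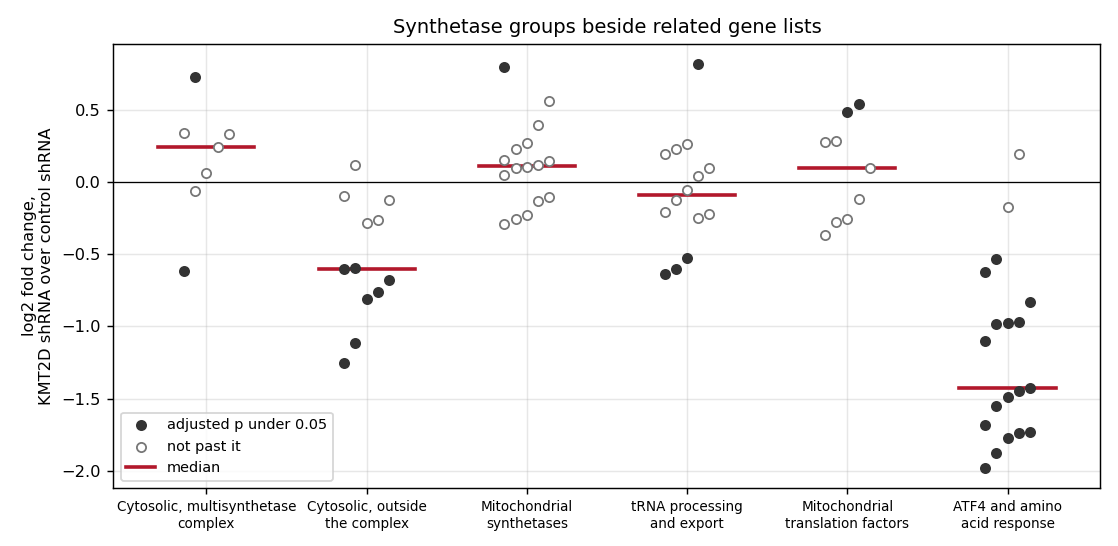
Log2 fold change (KMT2D shRNA over control shRNA, vertical axis) of single genes in the synthetase groups and in 3 related gene lists, filled where edgeR's adjusted p is under 0.05, with the median as a bar. The medians are 0.24 for complex enzymes, -0.60 for cytosolic enzymes outside the complex, 0.11 for mitochondrial enzymes, -0.09 for tRNA processing and export, 0.09 for mitochondrial translation factors and -1.43 for the ATF4 list.

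The cytosolic genes that did not pass outside the complex were also named. FARSA and FARSB encode the subunits of 1 enzyme, and their log2 fold changes were -0.26 and 0.12. FARSA had 153 and 189 CPM in the KMT2D shRNA libraries, against 205 CPM in the control, and FARSB had 94.8 and 89.1 CPM, against 84.8 CPM. NARS1, which makes asparagine tRNA and holds TGATGCAA at its start, had 201 and 189 CPM in the KMT2D shRNA libraries, against 209 CPM in the control (log2 fold change -0.10, edgeR adjusted p = 0.702). HARS1 and VARS1, the histidine and valine enzymes, were at -0.29 and -0.13. By the catalytic fold of the enzymes, 4 of 9 class I and 4 of 9 class II cytosolic genes fell, beside 14.5% of all genes. The falls were thus spread over both classes, leaving EPRS1, which holds both, aside.

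IARS2 was the mitochondrial gene that rose. It had 254 and 215 CPM in the KMT2D shRNA libraries, against 135 CPM in the control, on 1328, 1091 and 745 counts, and both KMT2D shRNA libraries were above the control (log2 fold change 0.79, SE 0.18, edgeR adjusted p = 0.000547). Summed CPM of the mitochondrial genes was 685 and 632 in the KMT2D shRNA libraries, against 558 in the control. Without IARS2 it was 431 and 417, against 422, so the control lay between the KMT2D shRNA libraries. RARS2, the mitochondrial arginine enzyme, had 28.3 and 23.1 CPM in the KMT2D shRNA libraries, against 17.4 CPM in the control, and missed the threshold (log2 fold change 0.56, edgeR adjusted p = 0.0609). With the length trend removed RARS2 was at 0.79 and passed (edgeR adjusted p = 0.0183), and with the GC trend removed as well it did not (0.63, edgeR adjusted p = 0.0727).

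The other 14 mitochondrial genes had log2 fold changes from -0.29 for CARS2 to 0.39 for WARS2. MARS2, the mitochondrial methionine enzyme, showed the smallest difference, with 12.4 and 10.4 CPM in the KMT2D shRNA libraries, against 11.1 CPM in the control. The mitochondrial values rest on fewer counts, down to 34 for PARS2 in KMT2D shRNA library 1, and their SE reached 0.36 for PARS2, against at most 0.18 for cytosolic genes. Small changes in the least abundant mitochondrial genes were thus not detectable at this depth.

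Cytosolic and mitochondrial enzymes for the same amino acid were then set against each other within each library, which removes the scaling between libraries. For each of 17 pairs the change of the cytosolic to mitochondrial count ratio from the control was taken, with an interval for counting error. The fitted difference of log2 fold changes, cytosolic minus mitochondrial, was below 0 in 14 pairs and above 0 in 3, with a median of -0.38. It was near 0 for FARSB/FARS2 (-0.0037), VARS1/VARS2 (-0.022), HARS1/HARS2 (-0.029) and LARS1/LARS2 (0.0098). Each of these near-0 pairs had opposite signs in the KMT2D shRNA libraries. In 8 pairs the interval lay below 0 in both KMT2D shRNA libraries (AARS1, CARS1, IARS1, MARS1, SARS1, TARS1, WARS1 and YARS1 with their partners), and in no pair did it lie above 0 in both. Apart from IARS1, the cytosolic genes of these 8 pairs are ones already described as lower. EPRS1 enters 2 pairs and FARS2 enters 2 pairs, all pairs share the 1 control library, and no p-value was taken over pairs. With the length and GC trends removed 15 pairs were below 0.

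**Figure D4:**
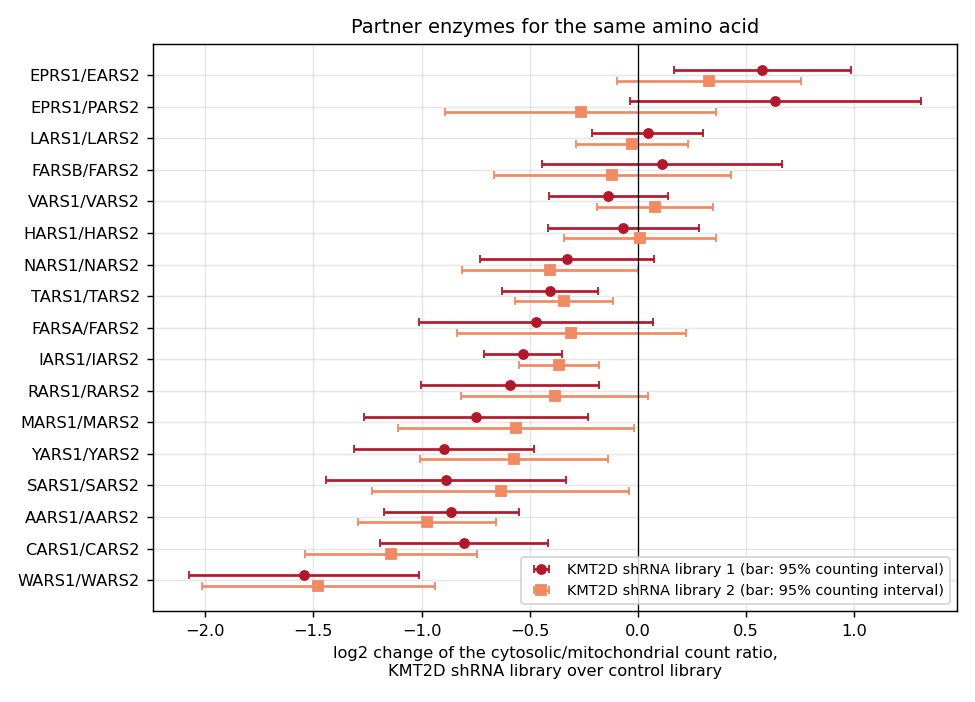
Log2 change of the cytosolic to mitochondrial count ratio (KMT2D shRNA library over control library, horizontal axis) for each pair of enzymes for 1 amino acid, with circles for library 1, squares for library 2 and bars for 95% counting intervals. WARS1/WARS2 lies lowest, at -1.54 and -1.48, and only EPRS1/EARS2 in library 1 has its whole interval above 0.

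The tryptophan pair moved furthest apart. WARS2 had 13.2 and 12.6 CPM in the KMT2D shRNA libraries, against 9.81 CPM in the control (edgeR adjusted p = 0.331), while WARS1 fell. WARS1 had 9.82 and 10.5 times the FPKM of WARS2 in the KMT2D shRNA libraries, against 29.3 times in the control. On the log2 scale the ratio changed by -1.54 in library 1, with a 95% interval of -2.07 to -1.01, and by -1.48 in library 2, with -2.02 to -0.94. CARS2, the partner of CARS1, had 22.2 and 22.7 CPM in the KMT2D shRNA libraries, against 27.4 CPM in the control, and the cysteine pair changed by -0.80 and -1.14. AARS2 had 37.7 and 35.9 CPM in the KMT2D shRNA libraries, against 34.1 CPM in the control, and the alanine pair changed by -0.86 and -0.97.

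The remaining partners of genes that fell were near the control. SARS2 had 11.3 and 8.87 CPM in the KMT2D shRNA libraries, against 9.45 CPM in the control, and YARS2 had 22.0 and 18.1 CPM, against 18.2 CPM. TARS2 had 76.1 and 71.7 CPM in the KMT2D shRNA libraries, against 86.6 CPM in the control (log2 fold change -0.23, edgeR adjusted p = 0.336). The isoleucine pair differed in kind, since IARS1 did not pass and IARS2 rose: the IARS1 to IARS2 ratio of FPKM was 0.662 and 0.745 in the KMT2D shRNA libraries, against 0.988 in the control. The histidine, leucine and valine pairs had intervals that spanned 0 in both libraries, from -0.41 to 0.36 for histidine, -0.29 to 0.30 for leucine and -0.41 to 0.35 for valine over both libraries. HARS1 and HARS2 overlap head to head on opposite strands, and their counts may share reads. In all, 10 members overlap a gene with 10 or more counts on the opposite strand. SARS2 overlaps MRPS12 (194 and 186 counts in the KMT2D shRNA libraries, against 295 in the control). EARS2 overlaps UBFD1 (413 and 351 against 334) and CARS2 overlaps ING1 (70 and 73 against 80). The part of such overlaps in the pair ratios was not tested.

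Fold change followed transcript length across genes, with Spearman coefficients of 0.456 in library 1 and 0.46 in library 2, so each member was refitted with that trend removed (genes are not independent replicates). The 8 cytosolic genes that fell, QARS1 and IARS2 all kept their direction and passed edgeR's test again, where 9.04% of all genes fell and 8.63% rose. They also did so with the length and GC trends removed together, where 6.98% fell and 6.86% rose. The largest adjusted p of these 10 genes in the fit without both trends was 0.0335, for SARS1. The median transcript length was 2759 bases for cytosolic and 2594 bases for mitochondrial genes, beside 2963 bases over all tested genes.

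**Figure D5:**
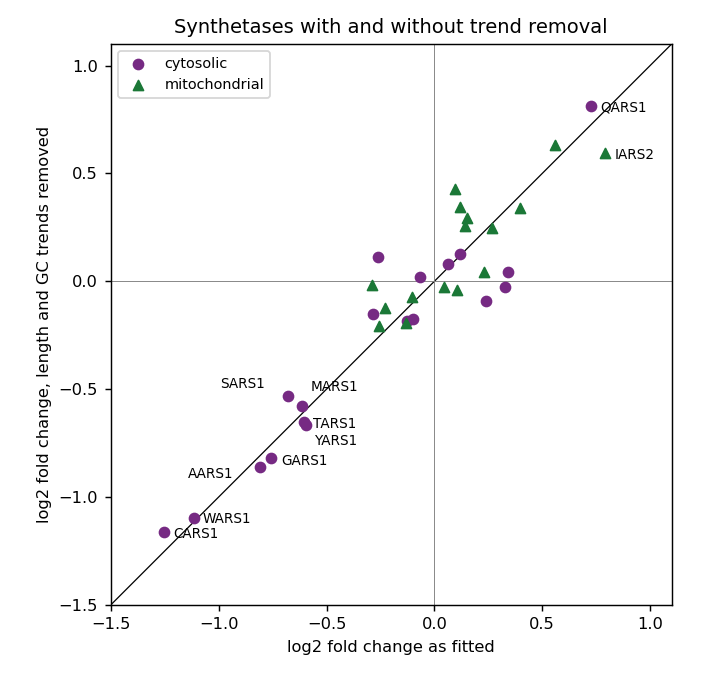
Log2 fold change of each synthetase gene as fitted (horizontal axis) against that with the length and GC trends removed (vertical axis), with the line of equality, circles for cytosolic and triangles for mitochondrial genes. The 10 named genes passed edgeR's test in both fits, and CARS1 lies lowest in both, at -1.25 and -1.16.

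The deposited mean transcript length differed between libraries by over 1% in 8 members, where several transcripts are listed for a gene. In 6 of them it was longer in both KMT2D shRNA libraries than in the control, as in 53.1% of all such genes. TARS2 had a mean length of 2739 and 2752 bases in the KMT2D shRNA libraries, against 2547 bases in the control. IARS1 had 4594 and 4589 bases, against 4455 bases, and NARS2 had 2519 bases in both, against 2356 bases. These lengths were estimated by the authors' software and carry no error.

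Genes that act with the synthetases were described from lists of known function, chosen with earlier results of these data known. Of the 3 scaffold proteins of the multisynthetase complex only AIMP2 fell, beside 14.5% of all genes. It had 27.3 and 24.2 CPM in the KMT2D shRNA libraries, against 39.8 CPM in the control (edgeR adjusted p = 0.017). Corrected for length it did not pass (edgeR adjusted p = 0.426). On the list of tRNA processing and export, 3 of 14 genes fell and 1 rose, beside 14.5% and 16.5% of all genes, with a median log2 fold change of -0.09. Those that fell were TSEN34, a subunit of the tRNA splicing endonuclease (-0.64), TRMT1, a tRNA guanine methyltransferase (-0.60), and RPP30, a subunit of RNase P (-0.53), and the one that rose was POP1, another RNase P subunit (0.81). With the length trend removed only TSEN34 passed, with the length and GC trends removed only RPP30 did, and DESeq2 called none of the 14 (2 at an unadjusted p under 0.05). XPOT, the exporter of tRNA from the nucleus, had 274 and 239 CPM in the KMT2D shRNA libraries, against 214 CPM in the control (edgeR adjusted p = 0.257), and was named after its values were seen.

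Among 5 cytosolic elongation factor genes only EEF1D fell, beside 14.5% of all genes. EEF1D is part of the exchange factor that reloads eEF1A and had 445 and 438 CPM in the KMT2D shRNA libraries, against 751 CPM in the control. Its log2 fold change was -0.77 (edgeR adjusted p = 0.000162), or -0.43 (edgeR adjusted p = 0.0649) with the length trend removed. With the length and GC trends removed EEF1D was at -0.27 and did not pass (edgeR adjusted p = 0.207). In that fit EEF2, another of the 5, rose (0.44, edgeR adjusted p = 0.0443), where 6.86% of all genes rose. Without trend removal DESeq2 called EEF1D lower (adjusted p = 0.00351), beside 3.25% of all genes. Of 5 genes for tRNA editing and selenocysteine charging only DTD2 fell, beside 14.5% of all genes. DTD2, a deacylase that clears wrongly charged tRNA, fell by 0.54 on the log2 scale (edgeR adjusted p = 0.0212). Corrected for length it did not pass (edgeR adjusted p = 0.07). DTD2 passed with the length and GC trends removed (-0.62, edgeR adjusted p = 0.0287) and did not by DESeq2 (adjusted p = 0.363). On the list of mitochondrial tRNA modification and charging partners, 3 of 13 genes fell, beside 14.5% of all genes: PUS1, a pseudouridine synthase (-0.90), TRMU, which thiolates mitochondrial tRNA (-0.71), and TRMT10C, a subunit of mitochondrial RNase P (-0.54). With the length trend removed PUS1 alone of these passed, and PRORP, the nuclease of the same RNase P, rose (0.55, edgeR adjusted p = 0.0383), which had not passed before (0.41, edgeR adjusted p = 0.0938). With the length and GC trends removed, and by DESeq2, none of the 13 genes passed (1 at an unadjusted p under 0.05 in DESeq2). Of 9 mitochondrial translation factor genes 2 rose, beside 16.5% of all genes, the elongation factor GFM1 (0.54) and the initiation factor MTIF2 (0.49), and of these only MTIF2 passed with the length trend removed. None of the 9 passed with the length and GC trends removed or by DESeq2 (0 at an unadjusted p under 0.05 in DESeq2).

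ATF4 targets and interferon genes were lower beside the 8 cytosolic synthetase genes that fell. On the ATF4 and amino acid response list 17 of 19 genes fell, beside 14.5% of all genes, the list's median being -1.43 on the log2 scale. ATF4 itself had 170 and 179 CPM in the KMT2D shRNA libraries, against 374 CPM in the control. DESeq2 called 14 of the list lower, beside 3.25% of all genes. With the length trend removed 16 fell, beside 9.04% of all genes, with a median of -1.21. With the length and GC trends removed 16 fell and ATF5 rose, beside 6.98% and 6.86% of all genes, with a median of -1.06. The largest falls were those of the stress gene DDIT4 (-1.98), the transcription factor ATF3 (-1.87), the pseudokinase TRIB3 (-1.77) and DDIT3 (-1.73), the transcription factor CHOP. The fall of CARS1 and WARS1 was thus smaller than the list's median. On the interferon response list all 12 genes fell, beside 14.5% of all genes, with a median of -3.64. They were led by ISG15 (-4.96), IFIT1 (-4.89), MX1 (-4.69) and OAS1 (-4.15), which are antiviral genes. Summed CPM of the interferon list was 638 and 629 in the KMT2D shRNA libraries, against 8317 in the control. Both lists were chosen with earlier results of these data known, so their counts describe these genes and are not tests. The part of either response in the synthetase changes was not tested, and with 1 control library a state of that library and an effect of the shRNA cannot be told apart.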

How the data were processed

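Messenger RNA of 3 PC-3 libraries was selected with oligo(dT) beads and sequenced on a BGISEQ-500, per the labels' protocols. The series' design text says "retinal" of these PC-3 profiles, and the sample labels were followed. The build hg19 and the aligners HISAT and Bowtie2 are listed in the submitters' processing notes, and the counting tool is not given in the sources used here. The authors deposited, per the file headers, an expected count (estimated reads per gene, not scaled), FPKM and a transcript length per gene and library. Of the expected counts the authors deposited, 67.8% to 68.0% were exact whole numbers. Tables were joined on Entrez identifier, genes absent from a table were taken as 0, and counts were rounded. RefSeq gave symbols for 18214 of 18331 identifiers.

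The comparison used edgeR 4.0.16 in R 4.3.3 (default filter by group, TMM scaling, quasi-likelihood F test, Benjamini-Hochberg adjustment over 14016 genes, 1 residual degree of freedom), checked on simulated data. The simulated data gave every gene the same dispersion, and the check required only that large changes without a length trend be recovered. It does not bear on changes as small as those of the synthetases. The edgeR test assumes that the control, with no replicate, varied like the KMT2D shRNA libraries. Spread was pooled across genes, with 45.7 prior degrees of freedom beside the 1 residual degree of freedom. The common dispersion gave a biological coefficient of variation of 10.9%. SE values derive from the F statistic. Fold changes of single libraries used a prior count of 2. Length and GC trends were removed by loess offsets with a span of 0.3, and GC content was known for 97.8% of tested genes. Alternatives were DESeq2 1.42.0, limma 3.58.1 on log2(FPKM + 1) or log2(FPKM + 0.1) with a filter at a mean FPKM of 1, other scalings and filters, and leaving out a KMT2D shRNA library. Counting intervals are at 95%, and reads without molecular identifiers are not independent molecules. The rule for named genes gave values in every library for members past the threshold, their partners and the extremes of each compartment, and up to 4 genes each way from each list; values of further members were added after they were seen. Members and lists were chosen with earlier results of these data known.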

Additional observations from a re-analysis of the deposited data

How the results depend on the processing

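Over the alternatives tried, 372 values of single members kept their side of the threshold and their direction or, with 1 library left out, moved by less than the spread, where 6 of them changed sign. Another 34 lost their call, 1 gained one and 3 moved. The sign turned in 9 values, none of a gene past the threshold in either fit: with the length trend removed KARS1 was at 0.13, LARS1 at -0.027 and AARS2 at -0.15, and with the length and GC trends removed EPRS1 was at -0.025, FARSA at 0.11, KARS1 at 0.022, LARS1 at -0.091, AARS2 at -0.041 and MARS2 at -0.027. The 8 cytosolic genes that fell became 4 by DESeq2, 7 without a filter on low counts (YARS1 lost, edgeR adjusted p = 0.0515), and 1 (WARS1), 0 and 0 by limma on log2(FPKM + 1), on log2(FPKM + 0.1) and on log2(FPKM + 1) without a filter. The cytosolic and the mitochondrial gene that rose became 0 in each limma setting. In those settings 10, 10 and 11 members had an unadjusted p under 0.05, as did 11 in edgeR, and limma called 295, 99 and 0 of all genes. With the length trend removed the mitochondrial genes that rose became 2. The cytosolic median log2 fold change moved to -0.15 with the length trend removed and to -0.17 with the length and GC trends removed. Leaving out either KMT2D shRNA library gave cytosolic medians of -0.30 to -0.26 and mitochondrial medians of 0.034 (library 2 alone) to 0.15. Those settings leave 1 library against 1, so they gave no counts of calls. Causes were not tested. Across all genes edgeR called 4352, DESeq2 1199, and edgeR 3245 with library totals, 1897 without a filter, 2477 with the length trend removed and 1940 with both trends removed. No paired analysis was possible because the control group has 1 library, so that the groups share fewer than 2 replicate numbers. Depth limits the mitochondrial genes most, where counts were as low as 34.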
